A study of Mus musculus with 8 samples.

Results

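The 10 genes described here, Gpam, Agpat2, Agpat3, Lpin1, Lpin2, Lpin3, Dgat1, Dgat2, Mogat1 and Pnpla3, encode enzymes that assemble glycerolipids and triglyceride, together with a patatin-like lipid droplet enzyme. They were picked by name for their place in the pathway, with earlier results of these data known. All 10 were found by symbol among the 16640 genes of the authors' deposited table. Whole livers were compared by bulk RNA sequencing between 4 wild-type mice (WT) and 4 mice with a liver-specific knockout of Huwe1 (Huwe1_LKO), which encodes a large HECT-type ubiquitin ligase. All 8 mice were 1 year old and had eaten a chow diet at will. The title of the series asks how loss of Huwe1 in the liver bears on fatty liver disease and lipid metabolism. The sources used here do not give the promoter that drove the deletion, or the sex and strain of the mice. The deposited table holds 1 normalized expression value per gene and group, so levels below are group values, and the value of each liver was not analysed here.

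Liver stores surplus fatty acids as triglyceride, which is built on glycerol 3-phosphate in the endoplasmic reticulum and on the outer mitochondrial membrane. Acyltransferases of the GPAT and AGPAT families add the first fatty acids and make phosphatidate, lipins remove its phosphate to give diacylglycerol, and DGAT enzymes add the last fatty acid. A side route starts from monoacylglycerol and uses MOGAT enzymes. PNPLA3 sits on lipid droplets, and its human counterpart is best known for its link to fatty liver.

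Gpam and Agpat2, acyltransferases of the first steps, the last-step gene Dgat1 and the low-abundance genes Mogat1 and Pnpla3 were lower in Huwe1_LKO liver, while Agpat3, the lipins and Dgat2 did not pass the test. These 5 passed at an adjusted p under 0.05 in the authors' deposited table. That makes 5 of 10 against 9.97% of all genes called, 5.56% as lower and 4.41% as higher. As the 10 were chosen with earlier results of these data known, comparisons with all genes here are descriptions and not tests. In DESeq2's deposited result 0 of the 10 rose, and 0 had an unadjusted p under 0.05 with a higher value in Huwe1_LKO. All 10 deposited log2 fold changes lay below 0, as did 46.9% of those of all genes, but those of Lpin1 and Lpin3 turn positive when fold changes are centred on the most abundant eighth of genes. The median deposited log2 fold change of the 10 was -0.36, against 0.02 for all genes and -0.08 for the most abundant eighth of genes. Every one of the 10 had a mean value of 10 or more.

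**Figure D1:**
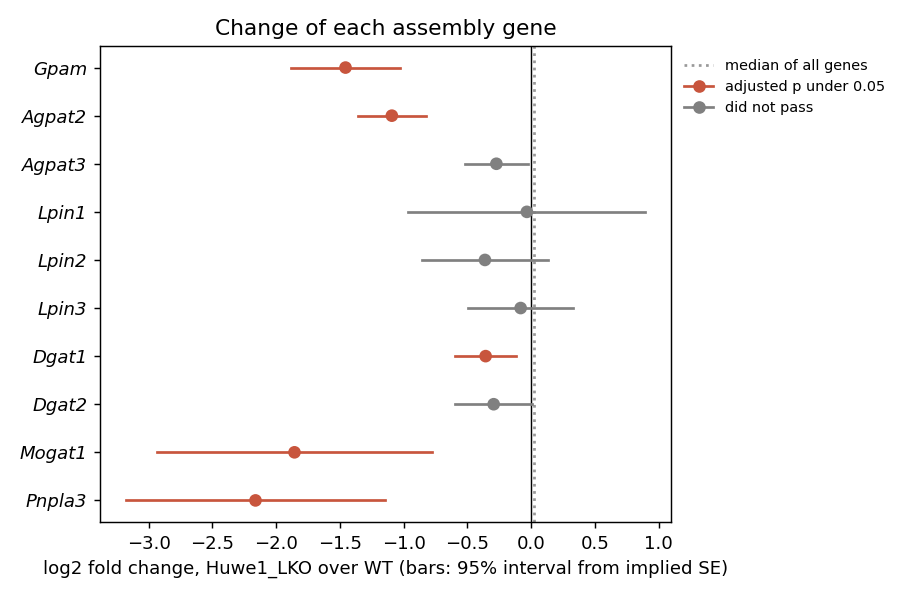
Deposited log2 fold change of Huwe1_LKO over WT for each of the 10 genes (points), with the 95% interval from the implied standard error (bars) and the median of all genes (dotted line). Pnpla3, Mogat1, Gpam and Agpat2 lie below -1, and the interval of Lpin1 spans the widest range on both sides of 0 among the genes that did not pass.

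Gpam, which encodes the mitochondrial glycerol-3-phosphate acyltransferase that adds the first fatty acid, had a value of 7358 for WT and 2684 for Huwe1_LKO by the authors' deposited table. It was 2.74-fold lower, and its deposited log2 fold change of -1.45 had an adjusted p of 3.89e-09. The standard error that the deposited p implies was 0.22, and the 95% interval built on it leaves 27.1% to 49.0% of the WT level. Only 0.613% of all genes had a lower deposited log2 fold change. The gene (Entrez ID 14732) lies on chromosome 19, from 55067635 to 55127319 in GRCm38.

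Agpat2, the main acylglycerol-phosphate acyltransferase of liver and fat, whose loss in people causes a generalized lipodystrophy, adds the second fatty acid. The authors' deposited table lists it at 5352 for WT and 2511 for Huwe1_LKO, a 2.13-fold lower level. Its deposited log2 fold change was -1.09 (implied standard error 0.14, adjusted p = 3.78e-13), the smallest adjusted p of the 10 genes. Agpat2 (Entrez ID 67512) lies on chromosome 2, from 26593057 to 26604417, and its exons share 64 bases with Egfl7 on the opposite strand. Its relative Agpat3 (chromosome 10, 78269174 to 78352497), which prefers polyunsaturated acyl-CoA, did not pass, with 3545 for WT and 2936 for Huwe1_LKO per the authors' deposited table (-0.27 as log2 fold change, standard error 0.13, adjusted p = 0.18). The 95% interval for Agpat3 runs from 69.8% to 98.3% of the WT level.

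The promoters of Gpam and Agpat2 are shown because these are the 2 abundant members with the largest falls. Both sequences are the 250 bases before the RefSeq start in GRCm38.p6, read 5′ to 3′ on the minus strand, and capitals mark a CCAAT box (CCAAT) or a GC box (GGGCGG) on either strand. GENCODE places no exon in either window. The Agpat2 window, chr2:26604418-26604667, lies within the annotated span of Gm20532, and the Gpam window, chr19:55127239-55127488, in no GENCODE gene. RefSeq draws the outer edge of Gpam further upstream, and 81 bases of the window fall inside that span.
Gpam: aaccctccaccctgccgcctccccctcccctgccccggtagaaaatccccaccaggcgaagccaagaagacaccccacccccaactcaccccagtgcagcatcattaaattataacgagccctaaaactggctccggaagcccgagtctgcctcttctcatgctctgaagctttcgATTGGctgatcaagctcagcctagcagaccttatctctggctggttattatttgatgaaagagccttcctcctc
Agpat2: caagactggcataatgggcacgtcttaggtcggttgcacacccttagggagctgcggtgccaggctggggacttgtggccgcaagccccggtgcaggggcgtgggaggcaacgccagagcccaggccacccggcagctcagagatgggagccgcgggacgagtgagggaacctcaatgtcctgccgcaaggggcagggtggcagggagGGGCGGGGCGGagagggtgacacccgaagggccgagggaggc
The Gpam window holds 1 CCAAT box, 74 to 70 bases before the start, and the Agpat2 window holds 2 overlapping GC boxes between 42 and 32 bases before it. Gpam has a further RefSeq start inside the gene, whose window holds 1 GC box. Of 32851 RefSeq windows of this length, 33.8% hold a CCAAT box and 32.7% a GC box, so both matches are common.

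RefSeq windows were found for 8 of the 10 genes, 12 windows in all, and none were found for Dgat1 and Dgat2. CCAAT boxes occur in 3 and GC boxes in 6 of the 12. The sterol regulatory element TCACNCCAC, where SREBP factors bind, was searched on both strands and matched 0 of the 12 windows and 1.05% of all windows. An E-box, CACGTG, the core of sites for ChREBP and other factors, matched 1 of the 12, a start of Lpin2, and 6.02% of all windows. These counts say only which letters stand in the windows.

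The lipins, which dephosphorylate phosphatidate and, for lipin 1, also act with transcriptional coactivators, make up the next step, and 0 of 3 passed in the authors' deposited table. Lpin2, whose WT value was the highest of the lipins, is listed at 5596 and 4356 in that deposited table, a log2 fold change of -0.36 with a standard error of 0.25 (adjusted p = 0.48). By the authors' deposited table, Lpin1 had 3204 for WT and 3133 for Huwe1_LKO. Its deposited log2 fold change was -0.03, but the implied standard error was 0.47, so the 95% interval reaches from 51.4% to 186% of the WT level. Lpin3, of low abundance in liver, had 103 and 97.2 in the deposited table, and its interval runs from 71.1% to 126%. For these 3 genes the data thus allow changes of different width, narrow for Lpin3 and wide for Lpin1. In GRCm38 Lpin1 spans 16535669 to 16653903 on chromosome 12, Lpin2 71183532 to 71249818 on chromosome 17 and Lpin3 160880670 to 160906000 on chromosome 2. With p under 0.05 unadjusted, 0 of the 3 passed in DESeq2's deposited result.

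A promoter of Lpin1 is shown beside those above because this gene had a group difference close to 0. The window, chr12:16610967-16611216 in GRCm38.p6, is read 5′ to 3′ on the minus strand. It precedes an internal start, 42937 bases inside the span that RefSeq gives for Lpin1 and that is printed above, whereas GENCODE begins the gene at this start and places no gene in the window.
Lpin1: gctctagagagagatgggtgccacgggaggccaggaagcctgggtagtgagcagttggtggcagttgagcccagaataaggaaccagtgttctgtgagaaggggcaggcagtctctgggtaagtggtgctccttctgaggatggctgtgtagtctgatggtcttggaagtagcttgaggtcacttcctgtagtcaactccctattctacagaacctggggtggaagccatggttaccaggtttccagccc
None of the 4 motifs searched matched the Lpin1 window, which says only that these letters are not in it. The windows of Mogat1, which fell, and of Agpat3, which did not pass, also hold no match. Lpin2 and Lpin3, which did not pass, have windows with GC boxes, for Lpin3 only before a start inside its RefSeq span. Whether the motifs and the calls are related was not tested.

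At the last step, Dgat1 and Dgat2 encode unrelated enzymes that both turn diacylglycerol into triglyceride. Dgat2, which in liver mainly serves newly made fatty acids, was the most abundant of the 10 genes, at 9314 for WT and 7603 for Huwe1_LKO per the authors' deposited table. It did not pass (-0.29 as deposited log2 fold change, standard error 0.15, adjusted p = 0.262), and the 95% interval runs from 66.3% to 101% of the WT level. Dgat1, which re-esterifies fatty acids taken up from outside, fell per the authors' deposited table, in which it has 339 for WT and 265 for Huwe1_LKO (-0.36 as log2 fold change, standard error 0.12, adjusted p = 0.0394). The call of Dgat1 was lost when fold changes were centred on the most abundant eighth of genes (adjusted p = 0.151) and when the trend of fold change with level and length was taken out (adjusted p = 0.15). The deposited log2 fold changes of Dgat1 and Dgat2 thus differed by less than either standard error, and only that of Dgat1 passed. Whether the 2 differ was not tested. Dgat1 lies on chromosome 15, from 76502012 to 76512021, and Dgat2 on chromosome 7, from 99153663 to 99182713.

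Mogat1, a monoacylglycerol acyltransferase of low abundance in normal liver, was 3.62-fold lower, at 118 for WT and 32.6 for Huwe1_LKO by the authors' deposited table. Its log2 fold change of -1.86 there has an adjusted p of 0.0121 and a large standard error, 0.55. Its 95% interval leaves 13.1% to 58.4% of the WT level. Mogat1 lies on chromosome 1, from 78511060 to 78606964. Its exons share 200 bases (12.8% of its exon bases) with the gene BC035947 on the opposite strand, and the sources used here do not say whether reads were counted by strand. Reads from that stretch could thus belong to either gene.

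Pnpla3, which acts on triglyceride and transfers acyl groups at the droplet surface, had the largest fall of the 10. The authors' deposited table gives 176 for WT and 39.4 for Huwe1_LKO, 4.47-fold lower, with a log2 fold change of -2.16 (standard error 0.52, adjusted p = 0.000917). The 95% interval leaves 11.1% to 45.2% of the WT level, and by deposited log2 fold change the gene ranked 28 from the most negative of the whole table. The gene lies on chromosome 15, from 84167776 to 84189521, and its exons share 105 bases with the processed transcript Gm49513 on the same strand. Its promoter is shown as that of the gene with the largest fall. The window, chr15:84167566-84167815 in GRCm38.p6 on the plus strand, lies in no GENCODE gene, and its last 40 bases fall inside the RefSeq span. Capitals mark the same 2 motifs.
Pnpla3: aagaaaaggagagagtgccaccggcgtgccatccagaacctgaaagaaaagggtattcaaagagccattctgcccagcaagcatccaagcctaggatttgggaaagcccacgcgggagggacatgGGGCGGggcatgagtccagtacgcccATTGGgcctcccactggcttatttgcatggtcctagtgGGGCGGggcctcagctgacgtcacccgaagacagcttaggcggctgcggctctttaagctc
It holds 1 CCAAT box, 99 to 95 bases before the start, and 2 GC boxes.

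**Figure D2:**
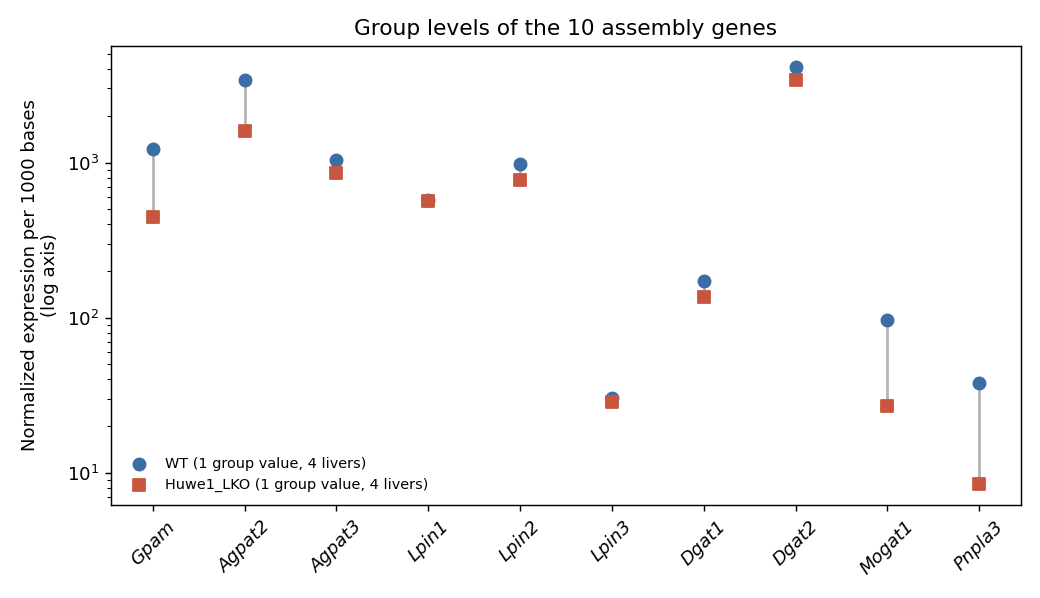
Group value per 1000 bases of listed gene length (log axis) for each gene, WT as circles and Huwe1_LKO as squares, joined by a line. Dgat2 and Agpat2 are the highest in both groups, the 2 symbols of Lpin1 and of Lpin3 nearly coincide, and the longest lines are those of Pnpla3 and Mogat1.

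Between genes, levels compare only per length. Per 1000 bases of the length listed in the deposited table, the WT level of normalized expression was 4138 for Dgat2, 3400 for Agpat2, 1230 for Gpam, 1031 for Agpat3, 984 for Lpin2, 574 for Lpin1, 173 for Dgat1, 96.9 for Mogat1, 37.9 for Pnpla3 and 30.3 for Lpin3. The highest was thus 137 times the lowest. In Huwe1_LKO the level of Gpam, 449 per 1000 bases, stood below those of Agpat3 (854), Lpin2 (766) and Lpin1 (561), which it had exceeded in WT, and Pnpla3, at 8.47 per 1000 bases, was the lowest. Both statements depend on the length used. Per 1000 bases of GENCODE exons, Gpam in Huwe1_LKO, at 403, stayed above Agpat3 (377), Lpin2 (356) and Lpin1 (324), and Mogat1 (20.9) rather than Pnpla3 (25.4) was the lowest. Spread between livers was not analysed here, so neighbours in this order cannot be separated. The lengths differ most for Pnpla3, for which the table lists 4649 bases and GENCODE exons cover 1548, and also for Agpat3 (3439 and 7790), Lpin2 (5685 and 12233) and Lpin1 (5580 and 9665).

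Within a step, the isoenzymes' shares differed between the groups, given here per listed length as descriptions with no test. Among the 4 GPAT genes, Gpam made up 61.6% of the summed level per 1000 bases in WT and 44.3% in Huwe1_LKO, and Gpat4, the enzyme of the endoplasmic reticulum, 33.8% and 47.3%. Per GENCODE exon length Gpam kept the larger share in Huwe1_LKO, 53.0% against 37.2% for Gpat4. The sum of the 4 was 1997 in WT and 1013 in Huwe1_LKO, 50.7% of WT. Among the 5 AGPAT genes, Agpat2 made up 73.5% in WT and 59.3% in Huwe1_LKO, and Agpat3 22.3% and 31.7%, while their sum in Huwe1_LKO was 58.2% of WT. The summed level of the lipins was 85.4% of WT and that of the DGAT genes 81.5%, of which Dgat2 made up 96.0% in WT and 96.1% in Huwe1_LKO. For Mogat1 and Mogat2 the sum was 32.3% of WT. The GPAT and AGPAT steps, which lead to phosphatidate, had lower sums relative to WT than the lipin and DGAT steps. With GENCODE exon length these sums were 48.0% and 55.4% of WT against 86.5% and 81.5%. The MOGAT sum was the lowest with either length, at 33.4% with GENCODE exon length. No interval was computed for the sums. For single lipins the interval was wide, from 51.4% to 186% of the WT level for Lpin1 and from 55.2% to 110% for Lpin2. Whether the steps differ was thus not tested.

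**Figure D3:**
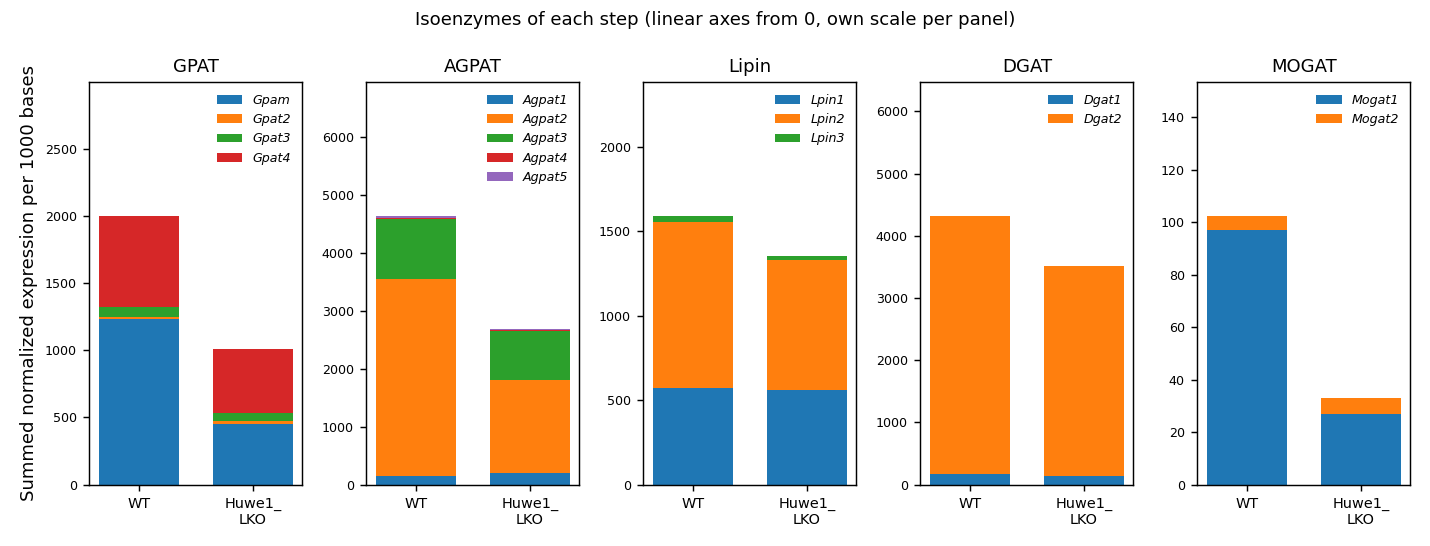
Summed normalized expression per 1000 bases of the isoenzymes of 5 steps in WT and Huwe1_LKO (linear axes from 0, each panel with its own scale, colours for the genes). The GPAT and AGPAT bars drop mostly by the part of Gpam and Agpat2, whereas the lipin and DGAT bars stay above 80% of WT.

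The 10 genes also differed in the implied standard error, which reflects variation among livers, counting noise and any shrinkage of the fold change. For Lpin1 it was larger than in 98.7% of the 1083 genes with a mean value within 2-fold of its own, whose median was 0.13. For Mogat1 it was larger than in 99.5% of genes of like level and for Pnpla3 in 99.1%, with medians of 0.23 and 0.20. Lpin2 (90.8%) and Gpam (87.3%) also lay high. In contrast, the standard errors of Agpat2 (49.0%), Agpat3 (40.9%), Lpin3 (49.8%), Dgat2 (56.1%) and Dgat1 (16.4%) lay near or below the middle. The 2 largest falls thus belong to genes whose standard errors are large for their level, so their size is uncertain in both directions. If deposited folds are shrunken toward 0, which no source used here states, these falls may be understated.

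**Figure D4:**
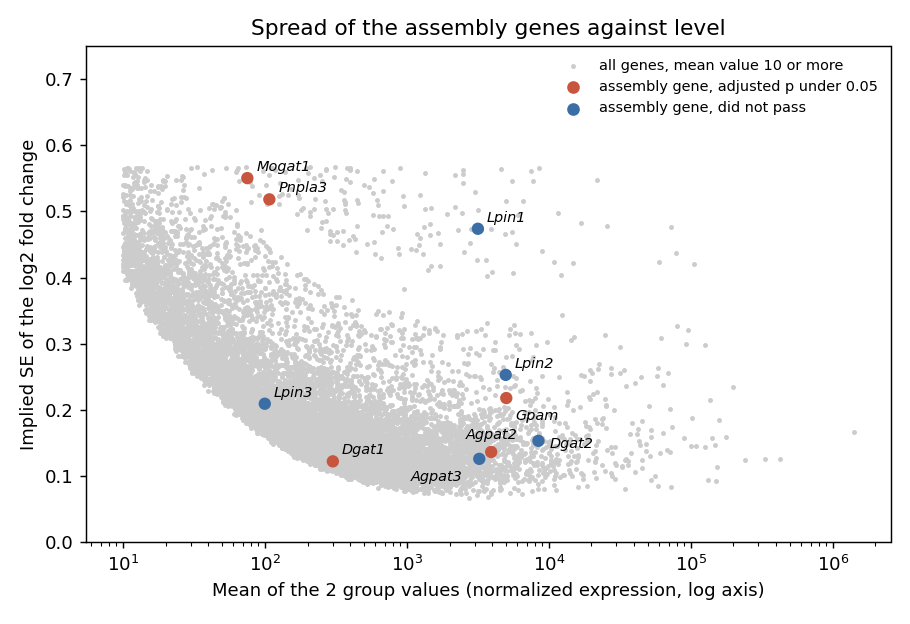
Implied standard error of the deposited log2 fold change against the mean of both group values (log axis) for genes with a mean value of 10 or more (grey) and the 10 genes (coloured by call). Mogat1, Pnpla3 and Lpin1 lie in the sparse upper cloud, and the other 7 genes in the main cloud.

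Around these enzymes, 8 lists of 75 genes were read, of which 72 were matched. Their median deposited log2 fold change was -0.11, and 14 fell, 2 rose and 56 did not pass by the authors' deposited table. Beside these counts and those per list below stand the shares over all genes, 5.56% lower and 4.41% higher. Of the other GPAT and AGPAT genes, Gpat4 alone of 8 fell, with 2660 for WT and 1890 for Huwe1_LKO in the deposited table (adjusted p = 0.024), a call lost when centred on the most abundant eighth of genes (adjusted p = 0.0766) or with the length and level trend taken out (adjusted p = 0.0892). Lpgat1 (-0.22), Lclat1 (-0.09) and Agpat1 (0.44) did not pass, as deposited log2 fold changes, although Agpat1 passed as higher with that centring (adjusted p = 0.0467). Agpat5 (-0.46) did not pass either, but passed as lower with the length and level trend taken out (adjusted p = 0.0357). Of 4 phosphatidate phosphatases of the PLPP family, which act on lipids outside the main assembly route, Plpp2 rose, with 199 for WT and 313 for Huwe1_LKO in the authors' deposited table (adjusted p = 0.024). Plpp3 (-0.22), Plpp5 (-0.14) and Plpp1 (0.28) did not pass, as deposited log2 fold changes. Among 5 other acyltransferases, which act at the last step or on monoacylglycerol, wax alcohols or sterols, 0 passed by DESeq2 as deposited. Of these, 1 had an unadjusted p under 0.05. The 3 with the highest values before division by length, the sterol acyltransferase gene Soat2 (-0.09), Tmem68 (0.07) and its sterol counterpart Soat1 (0.44), are given by deposited log2 fold change.

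Substrate supply moved in part. Of 8 genes for glycerol 3-phosphate, the authors' deposited table has 2 lower and 0 higher, and 3 had an unadjusted p under 0.05 by DESeq2. Gpd1, which makes glycerol 3-phosphate from a glycolytic intermediate, went from 10897 to 4952 (adjusted p = 1.14e-11), and Gpd2, its mitochondrial counterpart that consumes it, from 781 to 447 (adjusted p = 0.000132) in that deposited table. Glycerol kinase (Gk, -0.27), the glycerol channel Aqp9 (-0.09) and Pck1 of glyceroneogenesis (0.43) did not pass, as deposited log2 fold changes. Of 9 genes of acyl-CoA supply the authors' deposited table has 3 lower. These were the acyl-CoA synthetase Acsl5, from 6528 to 3583, Slc27a4, from 788 to 451, and the acyl-CoA binding protein Dbi, from 12968 to 8743, with deposited adjusted p of 7.78e-06, 1.34e-06 and 1.21e-05. Acsl1 (-0.39), a synthetase, Slc27a2 (-0.13) and Slc27a5 (0.07) did not pass, as deposited log2 fold changes. Acsl4, from 914 to 1320 (0.53), did not pass either (deposited adjusted p = 0.0608). It passed as higher when centred on the most abundant eighth of genes (adjusted p = 0.0207), but not with the length and level trend taken out (adjusted p = 0.116).

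Of 16 genes that lead away from phosphatidate and diacylglycerol, 1 was lower and 1 higher by the authors' deposited table. Chpt1, which uses diacylglycerol to make phosphatidylcholine, fell from 4320 to 2004 (adjusted p = 3.58e-17), and the diacylglycerol kinase gene Dgkh rose from 1.71 to 6.26 (adjusted p = 0.0113), both low values, in that deposited table. Cds2 (-0.26), Cept1 (-0.28) and Dgkz (-0.02) did not pass, as deposited log2 fold changes. Selenoi (-0.41) did not pass either, but passed as lower with the length and level trend taken out (adjusted p = 0.0172). Among 9 relatives of Pnpla3 and lipase cofactors, the authors' deposited table has 2 lower. G0s2, an inhibitor of the main triglyceride lipase, went from 1212 to 599.8 (adjusted p = 0.0153), and Pnpla7, a lysophospholipase, from 2475 to 1857 (adjusted p = 0.0026) in the deposited table. The gene of that lipase, Pnpla2 (0.17), and its relatives Pnpla8 (-0.28) and Pnpla1 (0.32) did not pass, as deposited log2 fold changes.

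Regulators known to act on these enzymes counted 5 lower and 0 higher of 13 in the authors' deposited table. Pparg, which drives fat storage and is known to raise Mogat1 in fatty liver, showed -2.09 as deposited log2 fold change, and Srebf1, known to raise Gpam and Pnpla3, showed -0.88 (adjusted p = 1.82e-20 and 0.00237). Scap, the escort of SREBP proteins, had a log2 fold change of -0.45, Mlxipl, the gene of ChREBP, of -0.41 and Nr1h3, the gene of LXR alpha, of -0.34 in the authors' deposited table (adjusted p = 0.0439, 0.015 and 0.00863). The calls of these last 3 were lost when centred on the most abundant eighth of genes (adjusted p = 0.124, 0.0724 and 0.0718) and with the trend of length and level taken out (adjusted p = 0.144, 0.0852 and 0.177). Ppara (-0.26), Xbp1 (0.40) and Nr3c1 (0.10) did not pass, as deposited log2 fold changes, although Xbp1 passed as higher with that centring (adjusted p = 0.0244) and with the trend taken out (adjusted p = 0.0143). That centring also moves the share of called genes that are higher, over the whole deposited table, from 44.2% to 65.3%.

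**Figure D5:**
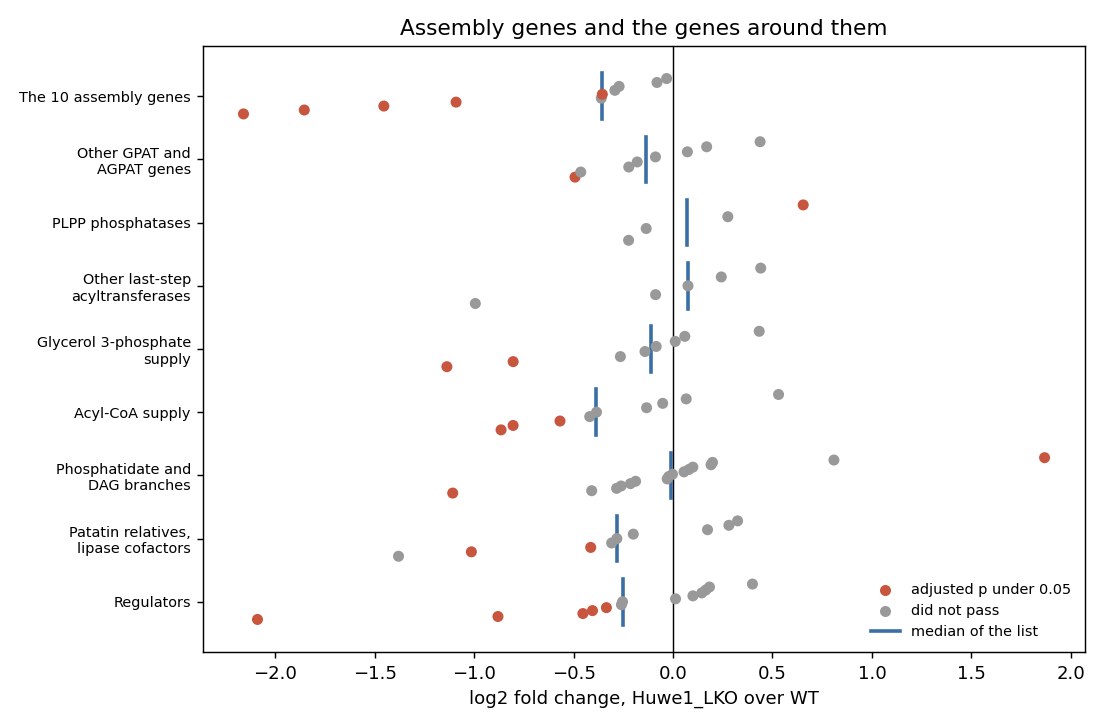
Deposited log2 fold change of Huwe1_LKO over WT for the 10 genes and the 8 surrounding lists (1 point per gene, coloured by call, blue bar for the median of the list). The median of the 10 genes is -0.36, and those of the lists run from -0.39 for acyl-CoA supply to 0.07. The row labelled other last-step acyltransferases also holds monoacylglycerol, wax and sterol acyltransferases.

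The targeted gene Huwe1 fell, at 2666 for WT and 1784 for Huwe1_LKO by the authors' deposited table (adjusted p = 0.000425), which leaves 66.9% of the WT level. Reads of cells that keep the gene would count toward that level, but where the remaining reads come from was not tested. Hepatocyte markers were high in both groups, with a summed value of 1524149 in WT and 2016560.4 in Huwe1_LKO, and 2 of 6 (Serpina1a and Hnf4a) were higher by the deposited table. Alb, which makes up most of the sum, did not pass (deposited log2 fold change 0.45), nor did Ttr (0.18), Apob (-0.03) and Tat (-0.48). Of the adipocyte markers Adipoq, at 0.368 and 0.394, and Lep, at 0.273 and 0.222, were near 0 in both groups of the deposited table, and Plin1 was not analysed here. Summed adipocyte markers, 499.9 in WT and 442.9 in Huwe1_LKO, came mostly from Lipe and Cfd, and 0 of 5 passed by DESeq2 as deposited, while 2 had an unadjusted p under 0.05, both with lower values in Huwe1_LKO. These were Cfd, at 135 and 57.8 (deposited log2 fold change -1.23, adjusted p = 0.171), and Retn, at 3.30 and 1.23 (-1.42, adjusted p = 0.0757), in the authors' deposited table. Neutrophil markers went from a sum of 107 to 226, with 2 of 5, S100a9 and Retnlg, higher in the authors' deposited table. The other neutrophil markers did not pass there. Csf3r went from 59.8 to 102 (adjusted p = 0.228) and S100a8 from 9.89 to 27.96 (adjusted p = 0.0504). Ly6g went the other way, from 7.52 to 5.02 (adjusted p = 0.628). Of 4 intestinal markers Fabp2 was lower and Vil1 higher. Of 6 markers each for macrophages, endothelium, stellate cells, bile duct cells and lymphocytes, 0 passed by DESeq2 as deposited, and 0, 0, 0, 1 and 0 had an unadjusted p under 0.05. The part of the adipocyte and neutrophil markers in the falls of the 10 genes was not tested. In whole tissue, fewer cells of a type and less RNA per cell cannot be told apart.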

How the data were processed

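Livers of 8 mice, 4 per genotype, gave RNA that was purified with a Promega kit and sequenced by a service company, per the labels' protocols. The submitters' processing notes name mm10 and DESeq2. The sources used here do not name an aligner, a counting method, its use of strand or a DESeq2 version. A table of 16640 genes was deposited. Per the file headers, 2 columns give normalized expression signal by group, and in the deposited table this signal sums to 17347886 for WT and 17533080 for Huwe1_LKO. Depth per liver is unknown. The deposited log2 fold change equals the log2 ratio of those columns to within 4.71e-08, and the deposited adjusted p-value equals a Benjamini-Hochberg adjustment of the unadjusted p-value over all genes to within 1.74e-06.

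The design called for a count model per liver. With group values only it could not be fitted, so the authors' deposited adjusted p, at a threshold of 0.05, gives the calls. Standard errors were computed as the size of the log2 fold change over the normal score of its two-sided p, which assumes a Wald test and was tested on simulated data. Intervals are 95% normal intervals. Deposited fold changes appear shrunken toward 0: the 707 lowest genes, at 8 times the mean under 1.06, have sizes of 0.109 to 0.117, so folds of low genes may be understated, although no source used here states a shrinkage step. Because the group values reproduce these fold changes, any shrinkage would also be present in the levels, step sums and shares given above. No standard error exceeded 0.57. All p-values rest on these 8 livers.

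The 10 genes and the lists were chosen with earlier results of these data known. The 10 are all named, as is every listed gene that passed, and of the others the 3 with the highest mean in each list. Acsl4, Agpat5 and Selenoi were named in addition after their values were seen. Coordinates and promoters are from RefSeq (GRCm38.p6), exons from GENCODE M21 on GRCm38. Software was Python 3.11.15 with scipy 1.17.1, pandas 2.3.3, numpy 2.4.6 and matplotlib 3.10.9. Alternatives were other thresholds, a mean value of 10 or more, 2 centrings, removal of the trend with length (5 classes) and level (10 classes), and a fold of 1.5 or more.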

Additional observations from a re-analysis of the deposited data

How the results depend on the processing

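Among the 70 combinations of a gene and an alternative tried for the 10 genes, 63 kept the direction and the call, 5 lost the call and 2 changed sign without a call. The log2 fold change of Lpin1 became 0.0517 and that of Lpin3 0.00292 when centred on the most abundant eighth of genes. At an adjusted p under 0.01, 3 of the 10 were lower (Mogat1 and Dgat1 lost), and so were 561 of all 16640 genes. Under the other alternatives 4 or 5 were lower, and 0 were higher under any. Over all genes, from 505 (fold of 1.5 or more) to 1215 (threshold of 0.1) were lower under those. From 414 (threshold of 0.01) to 1173 (centring on abundant genes) were higher under any. Dgat1 lost its call in 4 of 7 alternatives, with an adjusted p of 0.0394 as deposited and up to 0.151. In the surrounding lists 8 genes were lower with a fold of 1.5 or more, and 0 were higher at a threshold of 0.01, 4 at 0.1 and 5 with the centring on abundant genes, against 2 as reported. Ranked by the mean of both groups per listed length, 4 of the 10 genes kept their place with no division by length, and 4 with GENCODE exon length, an alternative chosen after seeing the data. In the WT order 4 and 5 kept their place, and in the Huwe1_LKO order 3 and 4. No paired analysis was possible because the deposited table holds 1 value per group. For the same reason leaving out each liver, edgeR and DESeq2 fits on counts were not run, and coding length was not used here.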

Other observations

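The deposited table also pairs genes with annotation terms, which were not used to choose the 10 genes. The terms read here were picked for the activities of these genes, so most calls below repeat those above and add no separate support. Over all genes 5.56% were called lower and 4.41% higher. Phosphatidate phosphatase activity is given for 13 genes with a median deposited log2 fold change of -0.08, of which 0 were lower and 2 higher. The risers were Plpp2 and Plppr3, the latter going from 41.7 to 74.2 (adjusted p = 0.00558) in that deposited table, and named after its value was seen. Diacylglycerol acyltransferase activity is given for 3 genes, Dgat1, Dgat2 and Mogat1, of which 2 fell. Glycerol-3-phosphate acyltransferase activity is also given for 3 genes, Gpam, Gpat3 and Gpat4, of which 2 fell in the authors' deposited table. For acylglycerol-3-phosphate acyltransferase activity, 1 of 8 genes, Agpat2, fell and 0 rose.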
